A study of Homo sapiens with 10 samples.

Results

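The respiratory chain genes of Kuramochi ovarian cancer cells were followed along an escalation of olaparib. The set was defined by gene symbol: NDUF subunits and assembly factors, the SDH subunits, the UQCR and nuclear COX subunits, the ATP synthase genes under their older ATP5 symbols, and the MT- genes. It took in 103 of the 12373 genes in the matrix, of which 90 are nuclear and 13 are mitochondrially encoded mRNAs. COX4I2, COX6A2, COX6B2 and COX7A1 were not analysed here. The 90 nuclear genes comprise 37 complex I subunits (7 core and 30 accessory), 9 assembly factors and 3 copies of subunit genes. Of the others, 4 are subunits of complex II and 8 of complex III. A further 13 are counted with complex IV, among them COX7A2L, and 16 with complex V, among them ATP5S.

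Kuramochi is a human line used as a model of high-grade serous ovarian carcinoma. The labels give it as epithelial and BRCA2-mutant, a genotype that treated and untreated cells share. Olaparib inhibits PARP, an enzyme of DNA break repair on which cells with defective BRCA2 depend. Cells adapted to 1, 2.5, 5, 10, 20, 40, 80, 160 and 320 µM olaparib (T1 to T320) and untreated cells (C) were each profiled as 1 inDrop library, a droplet method that tags each transcript with a unique molecular identifier (UMI). The populations are steps of 1 serial escalation with no replicate, so dose, time in culture and library cannot be told apart, and a p-value for a trend describes the order of these libraries.

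The libraries held 726 to 2645 cells and 1976069 to 9343704 UMIs. UMIs were summed over the cells of a population and scaled to its total UMIs, in the usual unit of counts per library total (CPM). Each library lists a gene either at 0 or in at least about 1% of its cells, so a listed 0 is not a measured absence. The 14 epithelial and Müllerian markers in the matrix summed to 669 CPM in T320 and 2592 CPM in C, with EPCAM listed at 0 in both. The 6 fibroblast markers in the matrix summed to at most 3538 CPM, in T5, and at least 115 CPM, in C, and no leukocyte marker was in the matrix. The part of these shifts in the results below was not tested. In summed counts, fewer cells with a transcript and less of it per cell cannot be told apart.

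The chain moves electrons from NADH (complex I) and succinate (complex II) through complex III to oxygen at complex IV, and complex V uses the resulting proton gradient to make ATP. Complex II is wholly nuclear encoded. The other complexes combine nuclear subunits with proteins made from mitochondrial DNA, so balanced assembly needs transcripts from both genomes. Many nuclear subunit genes have processed pseudogenes, and the nuclear genome holds old copies of mitochondrial DNA. A read from the gene can then be assigned elsewhere.

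Of the 90 nuclear genes, 59 had a named pseudogene (46), shared over 10% of the 31-base words near their transcript ends with another gene (34), or were copies themselves (3), with 22 meeting both of the first conditions. The other 31 had none of these. All 13 mitochondrial genes shared sequence or a name with nuclear copies. Genes with pseudogenes are therefore described from C to T80, and the 31 without them over all 10 populations.

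Neighbouring mitochondrial genes overlap, which limits how far their counts can be separated, and these stretches are shown for that reason. On the mitochondrial chromosome (GRCh38, plus strand), MT-ATP8 and MT-ATP6 overlap by 46 bases at chrM:8527-8572, and MT-ND4L and MT-ND4 by 7 bases at chrM:10760-10766. Both pairs are shown 5′ to 3′ with the overlap in capitals and 12 flanking bases on each side.
MT-ATP8/MT-ATP6: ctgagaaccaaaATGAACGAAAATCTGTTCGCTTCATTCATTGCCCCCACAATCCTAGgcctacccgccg
MT-ND4L/MT-ND4: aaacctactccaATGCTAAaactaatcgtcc

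The overlap is 22.2% of the length of MT-ATP8 and 2.36% of that of MT-ND4L. MT-ND6, at chrM:14149-14673, is the only mitochondrial mRNA gene of the set on the minus strand. The labels do not say whether counting used the strand, so reads of MT-ND6 and of transcripts from the opposite strand may not be separated.

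Promoters of 73 of the 87 nuclear members that are not copies were matched in RefSeq (GRCh38.p14; 250 bases before to 50 after the start). Motif letters were searched on both strands. The NRF1 letters (GCGC, any 2 bases, GCGC) were in 23.3% of the members' promoters and 11.99% of all 15843 protein-coding promoters. The ETS letters CCGGAAG were in 27.4% of members and 14.2% of all promoters, and the YY1 letters AAGATGGC in 15.1% and 3.91%. The HIF letters ACGTG were in 24.7% of members and 23.7% of all promoters, and TATAAA in 8.22% and 9.63%. Shown here are the 100 bases before the RefSeq start of 3 complex III genes. UQCRH and UQCRC1 differed at least 2-fold between T10 and C, and UQCR11 between T20 and T10. UQCRQ, also of complex III, differed 2-fold between T20 and T10 too and is not shown. Capitals mark the ETS letters or the NRF1 letters on either strand.
UQCRH (chr1:46303598-46303697, plus strand): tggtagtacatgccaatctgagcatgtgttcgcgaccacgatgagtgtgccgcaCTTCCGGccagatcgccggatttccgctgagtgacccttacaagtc
UQCRC1 (chr3:48609647-48609746, minus strand): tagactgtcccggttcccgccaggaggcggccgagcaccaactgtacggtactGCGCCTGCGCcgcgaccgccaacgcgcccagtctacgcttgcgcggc
UQCR11 (chr19:1605463-1605562, minus strand): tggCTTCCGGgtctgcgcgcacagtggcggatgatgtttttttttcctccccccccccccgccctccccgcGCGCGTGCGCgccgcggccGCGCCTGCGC

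The UQCRH stretch holds 1 ETS match, the UQCRC1 stretch 1 NRF1 match, and the UQCR11 stretch 1 ETS and 2 NRF1 matches. The same stretches of ATP5F1, NDUFAF3 and SDHB, not printed, hold no NRF1, ETS or YY1 match. A match is a description of letters and does not show a bound site.

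Summed over all 90 genes, nuclear respiratory chain transcripts were lowest in T10 and at 0.928 to 1.00 of the untreated level from T20 to T80. The 90 genes summed to 22628 CPM in C and, at the doses from T1 to T80 in turn, 19033, 18772, 17691, 15454, 22736, 20993 and 22653 CPM. The T10 sum was 0.683 of that in C (exact 95% interval 0.677 to 0.689, counting error only), and the T80 sum was 1.00 of it (0.995 to 1.01). The 90 include the copy ATP5EP2, with 928 CPM in T80 and 314 in C. The 31 genes without pseudogenes had the same low point but were still below C in T20, with 2847 CPM in T10, 3938 in T20 and 4340 in C.

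**Figure D1:**
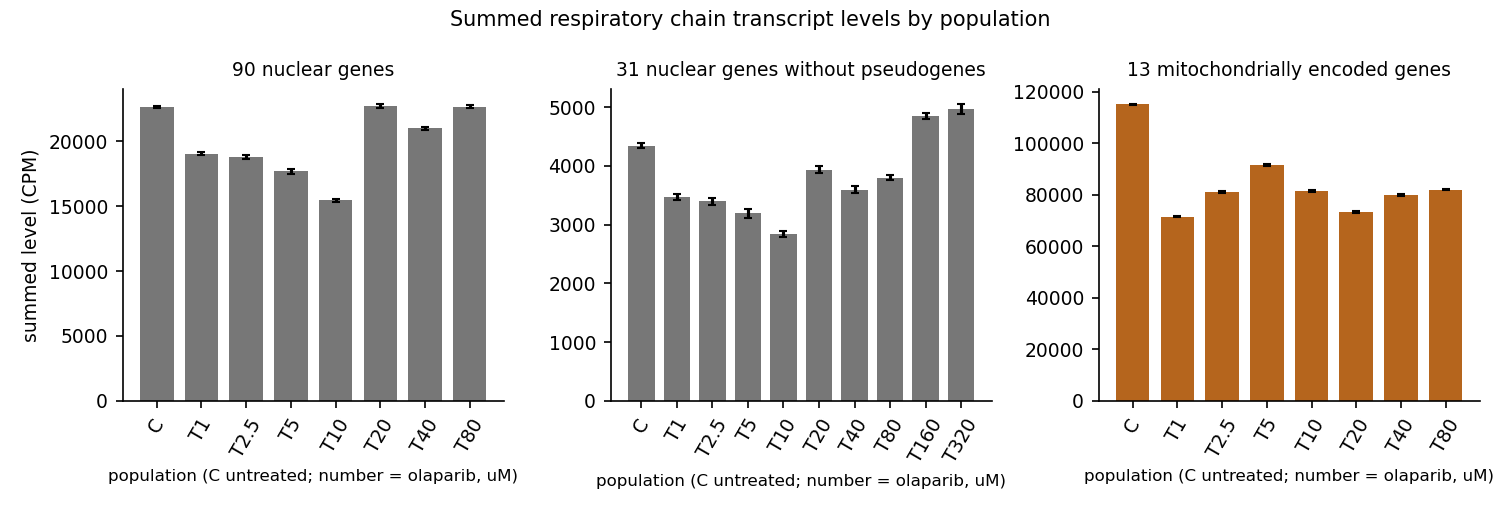
Summed level in CPM (vertical axes, linear and starting at 0) by population for the 90 nuclear genes, the 31 nuclear genes without pseudogenes and the 13 mitochondrially encoded genes. Error bars are exact Poisson 95% intervals, and the nuclear sums are lowest in T10 (15454 and 2847 CPM) while the mitochondrial sum is highest in C (115056 CPM).

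Complex III summed to 1787 CPM in T10 against 3402 CPM in C (0.525 of C, 0.512 to 0.539), and UQCRH had the largest part in this ratio. The other 7 complex III genes summed to 1219 CPM in T10 and 1410 in C (0.864, 0.837 to 0.893). Of these 7, UQCRB was above C, with 683 CPM in T10 and 569 in C. UQCR10, UQCR11, UQCRC1, UQCRC2, UQCRFS1 and UQCRQ were all below C in T10, at 0.439 to 0.819 of it. Without UQCRH the sum of all nuclear members in T10 was 0.721 of C. Complex V, the ATP synthase, had 4395 CPM in T10 and 5909 in C (0.744 of C). The T10 sums were 4069 against 5794 CPM in C for complex IV, 362 against 592 CPM in C for complex II, 487 against 663 CPM in C for complex I core subunits, and 3561 against 5386 CPM in C for its accessory subunits. Every complex was thus lower in T10 than in C by more than its counting error.

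A difference between 2 populations was taken as log2(CPM + 10), for genes with at least 100 UMIs in all and 50 CPM in either population, and counted from 2-fold. At T10, 13 of 75 measured nuclear members were at least 2-fold lower than in C and 0 were higher, against 7.17% lower and 13.0% higher among all measured genes. The median difference was -0.51 over the nuclear members and 0.05 over all 4461 genes measured. With 1 library a side there is no test. The 13 came from every complex: UQCRH, UQCRC1 and the copy UQCRHL from complex III, ATP5B, ATP5D, ATP5F1 and ATP5G1 from complex V, NDUFAB1, NDUFB2 and NDUFS5 from complex I, NDUFA4 and COX7A2L counted with complex IV, and SDHB from complex II. Among them ATP5F1, NDUFS5, SDHB, UQCRH and UQCRHL lie on chromosome 1.

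UQCRH, the hinge protein of complex III that binds cytochrome c1, had 1992 CPM in C and, in dose order from T1 to T80, 1042, 948, 1060, 569, 800, 807 and 901 CPM. All treated values lay below C, and T10 was 3.50-fold lower than C (3.36 to 3.66). UQCRH shares 53.6% of its end words with other genes, among them its copy UQCRHL. NDUFAB1, the mitochondrial acyl carrier protein and a complex I subunit, had between 113 CPM (T10) and 194 CPM in the populations from T1 to T80, against 332 CPM in C.

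The T10 values were set against T20 after they had been seen. From T10 to the next dose, 10 of 78 measured nuclear members were at least 2-fold higher in T20 and 0 were lower, against 2.80% higher and 3.86% lower among all genes. Their median difference was 0.50, against -0.21 over all genes. The 10 were UQCR11, UQCRQ, NDUFB9, NDUFB2, NDUFA11, NDUFB7, NDUFAF8, SDHD, COX6A1 and the copy ATP5L2. UQCR11, a small complex III subunit, had 153 CPM in T20 and 53.6 in T10. NDUFB9, an accessory subunit of the complex I membrane arm, had 787 CPM in T20 and 296 in T10.

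Within each of 3 cell states the nuclear sum was lower in T10 than in T20. The states are subsets of the cells of these same libraries, so their sums are not an independent comparison. The authors assigned 8240 cells to states C and S1 to S5, and 3 states had at least 50 cells in both libraries. In T20 the nuclear sum was 21871 CPM in S2, 24280 in S3 and 22690 in S4, and in T10 it was 14835 CPM in S2, 17132 in S3 and 17306 in S4. The median cell gave 2.33% of its UMIs to these genes in T20, 1.5% in T10 and 2.43% in C. Median UMIs per cell were 2742 in T20, 1979 in T10 and 2247 in C.

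**Figure D2:**
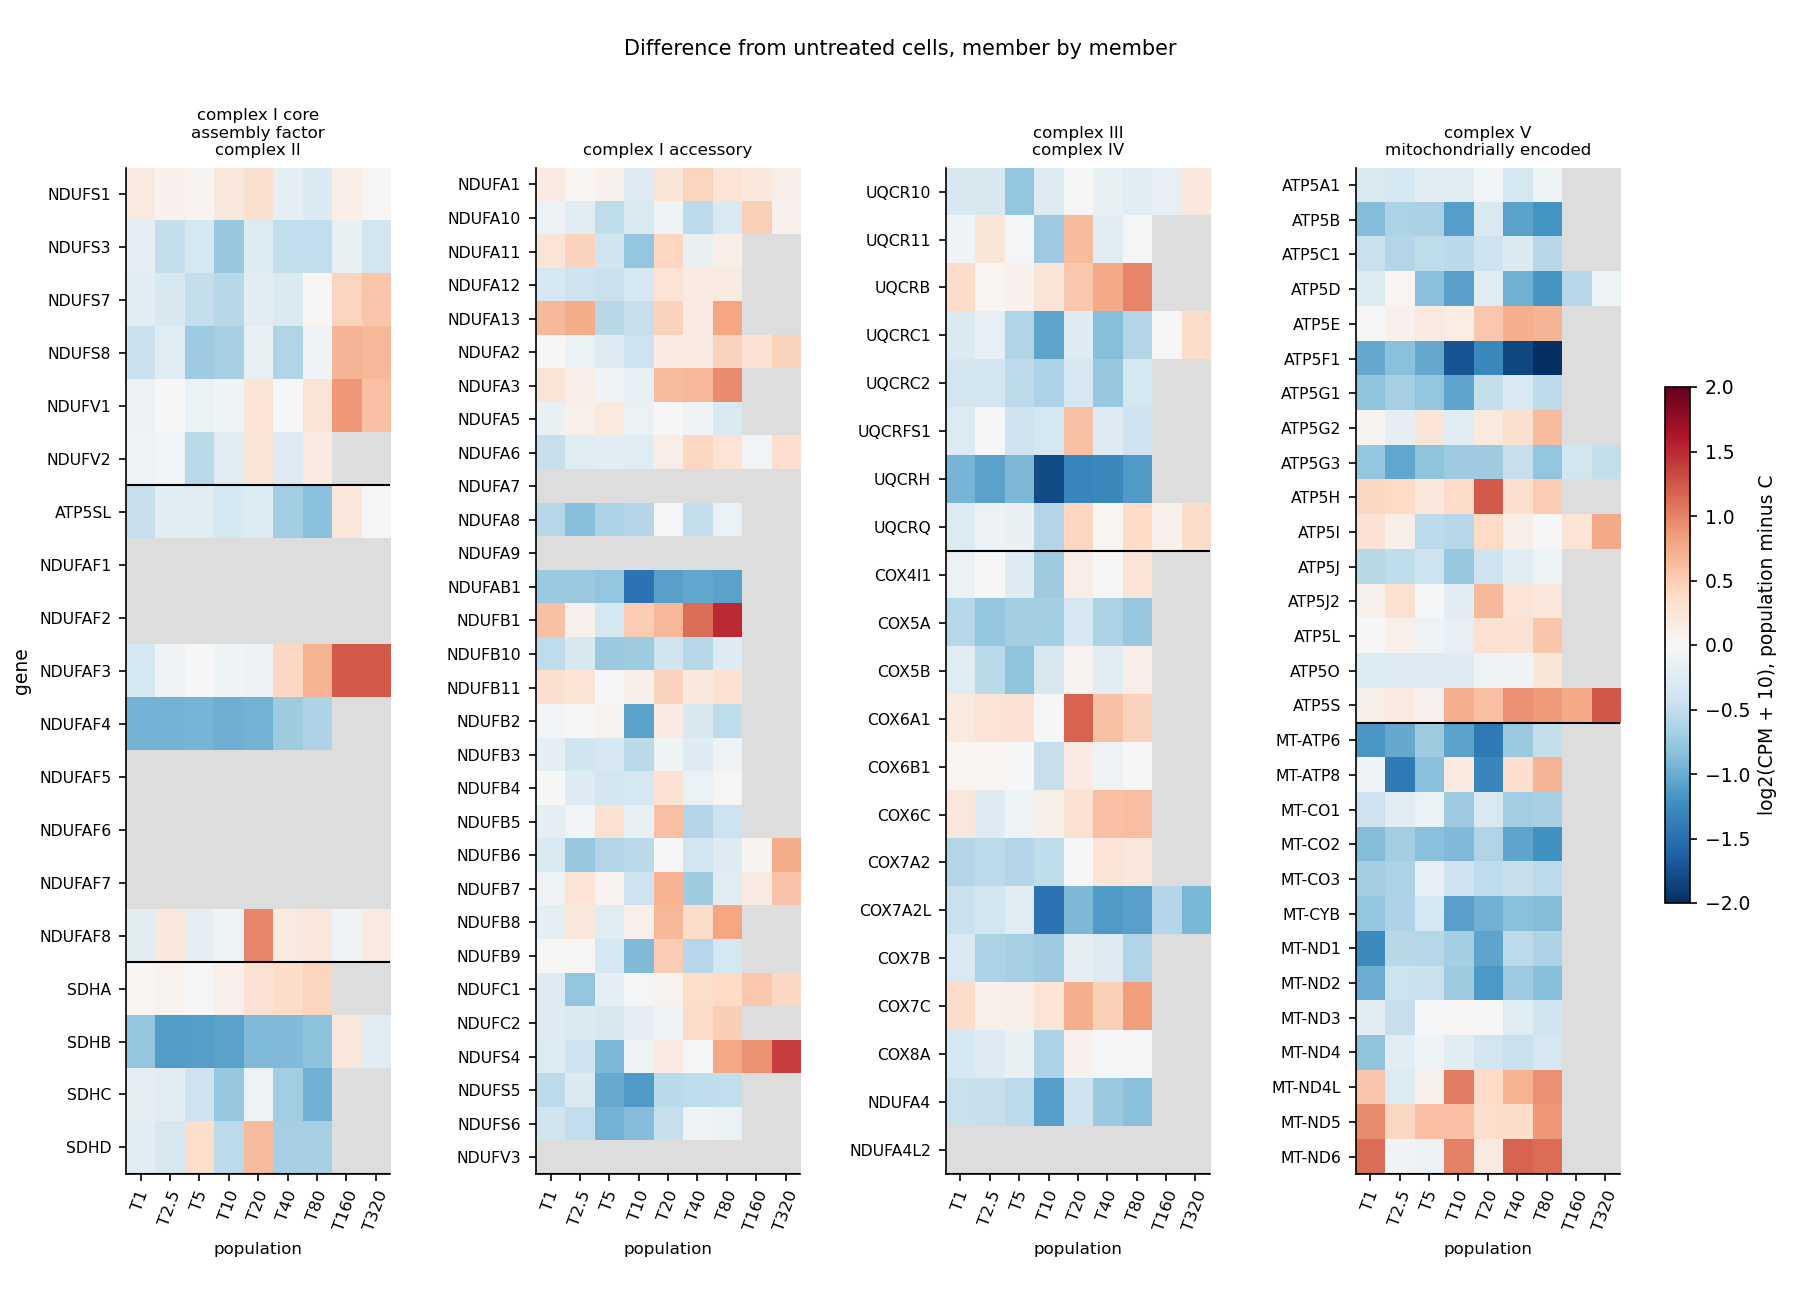
Difference of log2(CPM + 10) from C (colour, blue lower and red higher, limits at -2 and 2) for each population and gene, by complex. Grey marks genes under 50 CPM in every population and, for genes with pseudogenes, T160 and T320; the 3 copies and 1 further member are not drawn, and the T10 column is blue for most nuclear genes, while MT-ND4L, MT-ND5 and MT-ND6 are red there.

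A slope per step of dose was tested across all genes with edgeR's quasi-likelihood F-test on the 8 populations from C to T80, with Benjamini-Hochberg adjustment over all genes. Of 89 nuclear members tested 1 rose and 1 fell, against 3.68% rising and 4.63% falling among all 11156 genes, and 18 had an unadjusted p under 0.05, against 2784 of all 11156. DESeq2, on the same counts, called 7 rising and 4 falling among all 102 members tested, against 8.79% rising and 10.5% falling among all genes. Among the 13 mitochondrial genes 0 rose and 0 fell, with 1 under that unadjusted level. The median size of the slope was 0.06 log2 per step in nuclear members and 0.08 over all genes.

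ATP5F1 (now ATP5PB, chr1:111448864-111462773) encodes subunit b of the ATP synthase peripheral stalk, which holds the catalytic head still. It had 444 CPM in C and, at the doses from T1 to T80 in turn, 213, 245, 214, 127, 176, 118 and 99.9 CPM. Every treated population was below C, and the values of T40 and T80 were below all earlier ones. Its slope was -0.27 ± 0.05 log2 per step (SE, 8 populations; adjusted p = 0.0158, edgeR), and T80 was 4.44-fold lower than C (4.11 to 4.80). The call was lost without C (adjusted p = 0.0618), without T40 (0.0648) or without T80 (0.0694, edgeR). ATP5F1 has 7 named pseudogenes and shares 28.8% of its end words, so its counts may be divided with copies.

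ATP5S (chr14:50312326-50335558) encodes coupling factor B, which in bovine mitochondria is needed to couple proton flow to ATP synthesis. It had 24.6 CPM in C and, at the doses from T1 to T320 in turn, 27.3, 29.1, 26.8, 47.4, 42.8, 55.1, 52.2, 48.4 and 71.5 CPM. The populations from T10 on all lay above those before it. The slope from C to T80 was 0.18 ± 0.04 log2 per step (SE, 8 populations; adjusted p = 0.0215, edgeR), a call lost without T2.5 (adjusted p = 0.0523), T40 (0.0835) or T80 (0.0946, edgeR). Over the 10 populations the slope was 0.14 ± 0.03 (adjusted p = 0.00917, edgeR) and held without any single population, with adjusted p between 0.0090 and 0.0374.

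**Figure D3:**
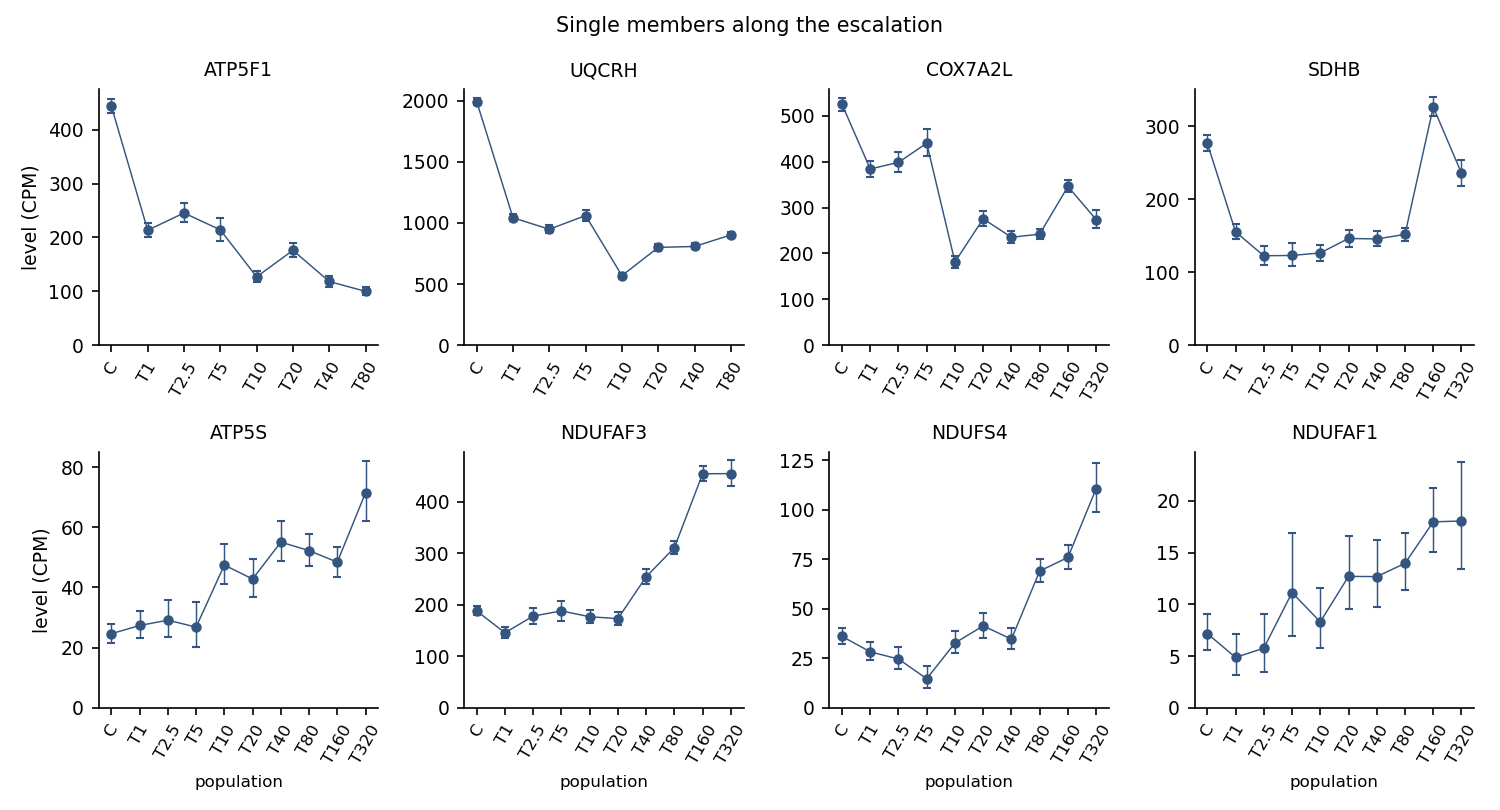
Level in CPM (linear axes starting at 0) of 8 nuclear members by population, with exact Poisson 95% intervals; ATP5F1 and UQCRH stop at T80 because they have pseudogenes. ATP5F1, UQCRH, COX7A2L and SDHB are below C from T1 to T80, and ATP5S, NDUFAF3, NDUFS4 and NDUFAF1 reach their highest levels at T160 or T320.

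At T20, T40 and T80, members on chromosome 1 differed from C by amounts near those of other genes there. The 7 measured there, among them ATP5F1, UQCRH and SDHB, were all below C in each population from T1 to T80. Their median difference from C was -0.53 in T1, -1.14 in T10, -0.54 in T20, -0.88 in T40 and -0.83 in T80. The other measured genes of chromosome 1 had medians of -0.07 in T1, -0.48 in T10, -0.58 in T20, -0.74 in T40 and -0.86 in T80. Over the other chromosomes, T80 medians were -0.01 for 72 nuclear members and -0.03 for 3603 other genes. In T20 and T80 the chromosome 1 members thus lay close to the other genes of their chromosome. In T1, T2.5, T5 and T10 they lay lower. Members and other chromosome 1 genes had -0.34 and -0.10 in T2.5, and -1.02 and -0.19 in T5. On the other chromosomes members also lay lower than other genes at these doses. Medians there were -0.22 and -0.06 in T1, -0.23 and -0.001 in T2.5, -0.33 and 0.03 in T5, and -0.45 and 0.14 in T10. At the 2 highest doses the other chromosome 1 genes had medians of -0.38 in T160 and -0.50 in T320, while SDHB, which has no pseudogene, had 326 CPM in T160 and 236 in T320, against 277 CPM in C. DNA copy number was not measured here, and its part in these levels was not tested.

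**Figure D4:**
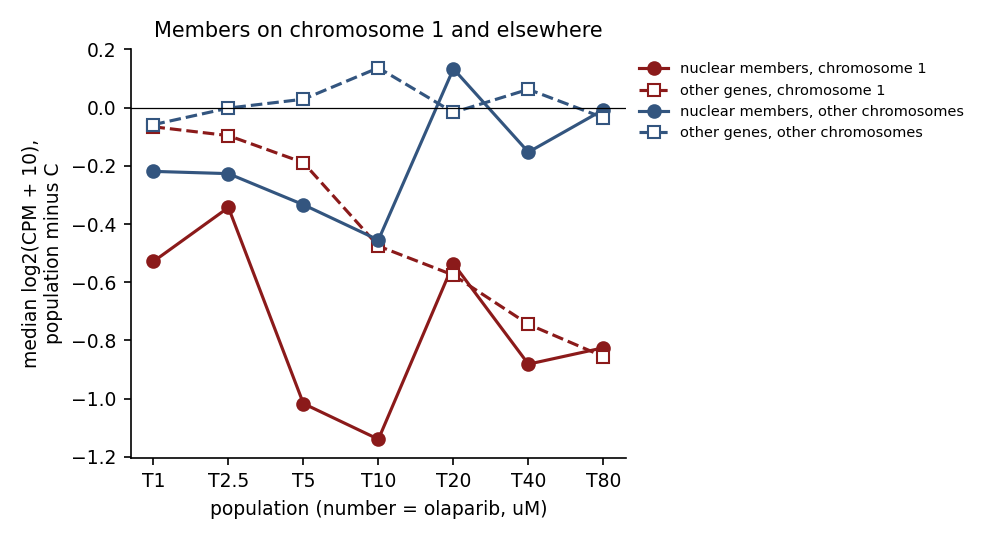
Median difference of log2(CPM + 10) from C (vertical axis) by population for nuclear members (filled circles) and other genes (open squares) on chromosome 1 (red) and on other chromosomes (blue). Other chromosome 1 genes run from -0.07 in T1 to -0.86 in T80, and the 7 members there are at -1.14 in T10 and -0.83 in T80.

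At the doses on either side of T10, fewer members than at T10 were 2-fold lower than in C. At T2.5, 3 of 75 measured nuclear members (ATP5G3, SDHB and UQCRH) were lower and 0 higher, against 2.37% lower and 4.55% higher among all genes. At T5, 5 of 75 were lower and 0 higher, against 4.72% lower and 7.87% higher. They included ATP5F1, NDUFS5, SDHB and UQCRHL, all on chromosome 1. At T20, 3 of 79 (ATP5F1, NDUFAB1 and UQCRH) were lower and 2 (ATP5H and COX6A1) higher, against 7.29% lower and 6.67% higher among all genes. At T40, 6 of 77 were lower and NDUFB1 was higher, against 8.76% lower and 8.88% higher. The median difference of the members was -0.25 in T2.5, -0.39 in T5, 0.07 in T20 and -0.23 in T40. Among 24 measured members without pseudogenes, NDUFAF3 was 2-fold higher in T160 than in C and 0 were lower, against 13.4% higher and 11.0% lower among all genes.

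At T80, 6 of 80 measured nuclear members were at least 2-fold lower than in C and 2 were higher, against 13.0% lower and 9.25% higher among all genes. The lower 6 were ATP5F1, UQCRH, NDUFAB1, COX7A2L and the ATP synthase head subunits ATP5B, the catalytic beta subunit, and ATP5D, the delta subunit of its rotor. ATP5B had 251 CPM in T80 and 589 in C, and ATP5D 46.1 CPM in T80 and 118 in C. The higher 2 were NDUFB1, an accessory subunit of the complex I membrane arm, with 323 CPM in T80 and 108 in C, and the copy ATP5EP2. The slope of NDUFB1 did not pass the test (0.19 ± 0.06 log2 per step, SE, 8 populations; adjusted p = 0.077, edgeR).

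The isoform pairs gave the following values. NDUFA4, now counted as a complex IV subunit, had 292 CPM in T80 and 531 in C. NDUFA4L2 (chr12:57234903-57240715), its paralogue known as a hypoxia-induced gene, was listed at 0 from C to T80 and had 11.4 CPM in T160 and 19.8 in T320. UMIs of NDUFA4L2 were seen in 67 of 2645 T160 cells (2.53%) and 45 of 1334 T320 cells (3.37%). COX4I1, a subunit that regulates complex IV, had 474 CPM in T80 and 390 in C. COX6A1 had 354 CPM in T80 and 255 in C, and COX6B1 had 872 CPM in T80 and 881 in C. COX7A2 had 721 CPM in T80 and 620 in C. None of these 4 COX genes differed 2-fold at T80.

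COX7A2L (chr2:42333546-42425088), which links complex III to complex IV in supercomplexes, was below C throughout. It had 525 CPM in C and, in dose order from T1 to T320, 384, 399, 440, 181, 276, 235, 242, 346 and 274 CPM. The lowest value was that of T10. Its slope did not pass the threshold from C to T80 (-0.17 ± 0.05 log2 per step, adjusted p = 0.0817) or to T320 (-0.11 ± 0.04, adjusted p = 0.068; SE and edgeR for both).

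In complex II, SDHA, the flavoprotein that binds succinate, had 145 CPM in T80 and 103 in C. SDHB, its iron-sulfur subunit, had 277 CPM in C, 123 to 155 in the populations from T1 to T80, 326 in T160 and 236 in T320. SDHC and SDHD, the membrane anchors, had 71.1 and 36.8 CPM in T80, against 147 and 64.4 CPM in C. SDHC was below C from T1 to T80, at 71.1 to 136 CPM, while SDHD was above C in T5 (84.5 CPM) and T20 (106 CPM) and below it in the other populations up to T80. SDHA was at or above C in each, at 104 to 145 CPM, and none of the 4 had a slope past the threshold (edgeR).

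Over the whole escalation, 5 of the 31 nuclear members without pseudogenes rose and 0 fell (edgeR, adjusted p under 0.05), against 8.03% rising and 8.99% falling among all 11387 genes, and 8 had an unadjusted p under 0.05, against 3703 of all 11387. The 5 were ATP5S, NDUFAF3, NDUFAF1, NDUFS4 and NDUFA4L2. NDUFA4L2 is listed at 0 in 8 populations and passed the filter of 100 UMIs only through T160 and T320, which fixed its direction (slope 1.52 ± 0.31, adjusted p = 0.0205, edgeR), did not pass with limma-voom (adjusted p = 0.0566) or DESeq2 (0.0988), and could not be fitted without T160 or T320. Among genes listed at 0 in fewer than 5 populations, 4 of 30 members rose and 0 fell, against 7.78% rising and 8.79% falling of all 10829.

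NDUFAF3 (chr3:49020459-49023495) encodes a factor that acts with NDUFAF4 in the early assembly of complex I. It had 188 CPM in C and, at the doses from T1 to T320 in turn, 146, 178, 188, 177, 173, 255, 311, 455 and 455 CPM. It was flat up to T20 and higher at each dose from T40 to T160. The slope was 0.15 ± 0.03 log2 per step (SE, 10 populations; adjusted p = 0.0135, edgeR), and the adjusted p was 0.0539 without T320.

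NDUFS4 (chr5:53560633-53683340) encodes an accessory subunit late in complex I assembly, whose loss causes Leigh syndrome. It had 36.1 CPM in C and, in dose order from T1 to T320, 28.3, 24.6, 14.7, 32.7, 41.4, 34.7, 69.1, 75.9 and 111 CPM. The 3 highest doses were the highest values. The slope was 0.18 ± 0.05 (SE, 10 populations; adjusted p = 0.0272, edgeR), and the call was lost without T1, T2.5, T80, T160 or T320 in turn (adjusted p 0.0515 to 0.121). NDUFAF1 (chr15:41387349-41402519), an assembly factor of the complex I membrane arm, stayed under 50 CPM, with 18.0 CPM in T320 and 7.17 in C. Its slope was 0.17 ± 0.04 (adjusted p = 0.0231, edgeR), lost without T1, T80, T160 or T320 (adjusted p 0.0530 to 0.0583).

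At T320, 3 of 25 measured members without pseudogenes were at least 2-fold higher than in C and 0 were lower, against 15.4% higher and 11.6% lower among all genes. The 3 were NDUFS4 at 3.07-fold (2.62 to 3.59), ATP5S at 2.90-fold (2.39 to 3.52) and NDUFAF3 at 2.42-fold (2.25 to 2.60). The next highest were ATP5I, an ATP synthase membrane subunit, with 337 CPM in T320 and 196 in C, and the complex I subunit NDUFB6, with 168 CPM in T320 and 96.7 in C. The lowest relative to C were COX7A2L, ATP5G3, NDUFS3 and SDHB. ATP5G3, which encodes the c subunit of the rotor ring, had 485 CPM in T320 and 681 in C.

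The median difference of these 25 genes was 0.37, against 0.12 over all measured genes. Their sum over all 31 was 4975 CPM in T320 and 4340 in C, a ratio of 1.15 (1.12 to 1.17) that turned to 0.943 with TMM scaling, under which the medians were 0.10 for members and -0.22 for all genes. The 7 assembly factors without pseudogenes summed to 636 CPM in T320 and 364 in C, and the 6 other than NDUFAF3 to 181 CPM in T320 and 176 in C. Without NDUFAF3 the ratio of the 30 other genes was 1.09.

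Several of these genes were higher in T160 than in T80. From T80 to T160, 2 of 25 measured members without pseudogenes were at least 2-fold higher and 0 lower, against 4.67% higher and 4.55% lower among all genes, with medians of 0.42 for members and 0.22 for all genes. The 2 were ATP5SL (now DMAC2), a complex I assembly factor, with 95.7 CPM in T160 and 40.1 in T80, and SDHB, with 326 CPM in T160 and 152 in T80. Neither remained at 2-fold with TMM scaling, which left 0 such members. From T160 to T320, 0 of 25 differed 2-fold, against 1.25% higher and 1.55% lower among all genes, and the median was 0.00.

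In the deposited state S5, which in the listed cells holds T160 and T320, the ratios to state C were 2.86 for NDUFS4 (2.27 to 3.65), 2.76 for ATP5S (2.09 to 3.69) and 2.46 for NDUFAF3 (2.24 to 2.70). Among genes that reach 50 CPM, the lowest were COX7A2L (0.615) and ATP5G3 (0.812). State and library are nearly the same cells here, so these values repeat the population values in the listed subset.

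Genes that share many and few end words with other genes had different medians at the step from T80 to T160. Values of members with pseudogenes at T160 are given here for that comparison only. Genes with few shared words can still have named pseudogenes. Among all measured genes with up to 10% shared end words, the median difference of T160 from T80 was 0.26 over 3528 genes, and among those with over 40% it was -0.39 over 176. COX6A1, with 53.8% shared, had 88.4 CPM in T160 and 354 in T80, and the copy ATP5EP2 had 13.6 CPM in T160 and 928 in T80. With 10% to 40% shared, the median was -0.08 over 23 nuclear members and 0.04 over 575 of all genes. With up to 10% it was 0.26 over 49 nuclear members. The 6 nuclear members with over 40% had a median of 0.09, and 3 of them were higher in T160. ATP5EP2 has no value for shared words and is not among these 6. The 3 that were higher were UQCRH (1228 CPM in T160, 901 in T80), its copy UQCRHL (77.0 in T160, 57.7 in T80) and NDUFA13 (267 in T160, 197 in T80). The 3 mitochondrial genes with up to 10% shared (MT-CYB, MT-ND3 and MT-ND5) were all higher in T160, and 4 of the 6 with over 40% were lower. Whether counting differed between these libraries was not tested.

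Mitochondrially encoded transcripts were lower in each treated population from T1 to T80 than in untreated cells. The 13 genes summed to 115056 CPM in C and, in dose order from T1 to T80, 71455, 81110, 91511, 81442, 73244, 79875 and 81947 CPM. T1 was at 0.621 of C (0.619 to 0.623) and T80 at 0.712 (0.710 to 0.714). Per cell, the median share of UMIs was 6.39% in T1 (quartiles 4.59 and 8.47) and 10.7% in C (5.15 and 13.2). The deposited cells reach at most 15.1%, and 1.12% of T1 cells and 14.04% of C cells were above 14%. The highest share of a cell was 14.8% in T1 and 15.0% to 15.1% in each other population. The measure is thus bounded near 15% in every population, and C has the most cells near that bound. Whether cells above an upper limit were removed before deposit was not tested.

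In T80 the mitochondrial subunits of complex IV summed to 19940 CPM, against 34161 in C (0.584). The nuclear genes counted with complex IV summed to 5846 CPM in T80 and 5794 in C (1.01). MT-CYB, the only mitochondrial subunit of complex III, had 5485 CPM in T80 and 10010 in C (0.548), beside 0.837 for the nuclear subunits of that complex in T80 and 1.38 for the 7 other than UQCRH. Of these 7, UQCRB was at 1.98 of C in T80 and UQCRQ at 1.33. UQCR10, UQCR11, UQCRC1, UQCRC2 and UQCRFS1 were below C, at 0.638 to 0.971 of it. Not every mitochondrial gene was lower relative to C than the nuclear sum of its complex. For complex V, MT-ATP6 was at 0.722 of C in T80 and MT-ATP8 at 1.60, beside 1.01 for its nuclear genes. Without ATP5E (1815 CPM in T80, 1125 in C) the nuclear sum of complex V was at 0.874 (0.862 to 0.887). For complex I, MT-ND1 to MT-ND4 were at 0.554 to 0.792 of C in T80, and MT-ND4L, MT-ND5 and MT-ND6 at 1.82 to 2.26. Its nuclear core and accessory subunits were at 0.859 and 1.01.

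At T1, 2 of the 13 were at least 2-fold lower and 1 was higher than in C, and of 75 measured nuclear members 1 was lower and 0 higher, against 4.83% lower and 7.57% higher among all genes. The largest differences were those of MT-ND1 (5977 CPM in T1, 14532 in C), MT-ATP6 (4874 in T1, 10943 in C), ATP5F1 and MT-ND2 (6919 in T1, 13700 in C). On the other side were MT-ND6 (276 CPM in T1, 121 in C), MT-ND5 (5171 in T1, 2681 in C), NDUFA13 (178 in T1, 110 in C) and NDUFB1 (167 in T1, 108 in C). MT-ND1 to MT-ND6 encode the membrane core of complex I, and MT-ATP6 the proton channel subunit of complex V.

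Mitochondrial genes, most of which are cut from a long shared precursor, differed from C by unequal amounts. MT-CO1, MT-CO2 and MT-CO3, the core of complex IV, had 5647, 5201 and 9091 CPM in T80, against 8959, 12061 and 13142 CPM in C. At T80, MT-CO2 was the 1 mitochondrial gene at least 2-fold lower than in C, and MT-ND6 the 1 at least 2-fold higher (274 CPM in T80, 121 in C). MT-ND3 had 6083 CPM in T80 and 8062 in C, and MT-ND4 12929 CPM in T80 and 16316 in C. MT-ND5, MT-ND4L and MT-ATP8 were also above C in T80, with 4880 against 2681 CPM in C, 961 against 506 CPM in C and 6441 against 4023 CPM in C.

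As shares of mitochondrial UMIs, 3 genes were high and low in the same libraries. MT-ATP8 took 3.50% in C and, at the doses from T1 to T80 in turn, 5.32%, 1.86%, 2.47%, 5.67%, 2.21%, 6.36% and 7.86%. MT-ND6 took 0.105% in C and, in dose order from T1 to T80, 0.386%, 0.141%, 0.121%, 0.310%, 0.188%, 0.359% and 0.334%. MT-ND4L took 1.04% to 1.27% in T1, T10, T40 and T80 and 0.440% to 0.913% in C, T2.5, T5 and T20. For each of the 3, every value in T1, T10, T40 and T80 was above every value in C, T2.5, T5 and T20, an alternation that does not follow dose. MT-ATP8 and MT-ND4L overlap a neighbour and MT-ND6 lies on the opposite strand, as shown above, and the part of library preparation in it was not tested. MT-ND5 took 4.32% to 7.24% in the treated populations up to T80 and 2.33% in C.

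**Figure D5:**
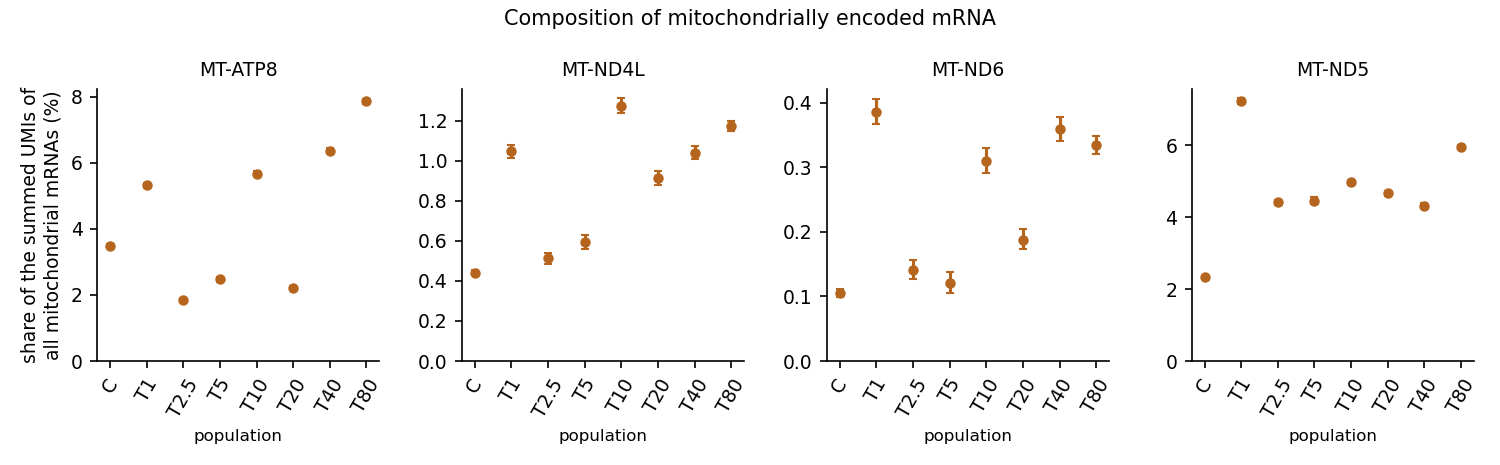
Share of the UMIs of all 13 mitochondrial mRNAs (percent, axes starting at 0) for 4 genes by population from C to T80, with exact binomial 95% intervals. MT-ATP8, MT-ND4L and MT-ND6 are higher in T1, T10, T40 and T80 than in C, T2.5, T5 and T20, and MT-ND5 is lowest in C (2.33%).

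States within a library were compared where each had at least 50 cells. The mitochondrial sum was lower in S4 than in S3 in each of 4 libraries: 62676 CPM in S4 and 81613 in S3 of T10, 55723 in S4 and 76003 in S3 of T20, 81912 in S4 and 105206 in S3 of T40, and 89118 in S4 and 118378 in S3 of T80. This comparison was chosen after the values were seen, and states were made by the authors from these cells, so it carries no test. Median UMIs per cell were 2170 in S4 and 2099 in S3 of T10, and 3364 in S4 and 3278 in S3 of T80. They were 3094 in S4 and 3359 in S3 of T20, and 2674 in S4 and 2309 in S3 of T40. None of 68 nuclear members and none of the 13 mitochondrial genes differed 2-fold between S4 and S3 in all 4 libraries, against 2.29% higher and 2.93% lower among all genes. Between S3 and S2, NDUFAB1 was the only 1 of 71 nuclear members at least 2-fold higher in both T10 and T20, against 2.86% among all genes. There the median difference in T10 and in T20 was 0.17 and 0.11 for nuclear members and -0.07 and -0.14 for mitochondrial genes.

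Genes that build and feed the chain were read from 5 further lists with the same test (edgeR). Among 55 assembly factors and electron carriers tested from C to T80, 4 rose and 2 fell, against 3.68% rising and 4.63% falling among all genes. ETFB, a subunit of the flavoprotein that passes electrons from fatty acid oxidation, had 152 CPM in T80 and 37.5 in C (adjusted p = 0.00615). SDHAF3, an assembly factor of complex II, had 18.7 CPM in T80 and 5.03 in C (adjusted p = 0.00865). Both kept an adjusted p under 0.05 without any single population (edgeR).

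GPD2, the mitochondrial glycerol phosphate dehydrogenase, had 19.1 CPM in T80 and 112 in C (adjusted p = 0.0254, edgeR, 0.0261 to 0.142 with a population left out). COA7, an assembly factor of complex IV on chromosome 1, had 16.5 CPM in T80 and 56.2 in C (adjusted p = 0.0112, edgeR, 0.0125 to 0.0624 with a population left out). Of 40 genes of this list without pseudogenes, 3 rose and 2 fell from C to T320, against 8.03% rising and 8.99% falling among all genes. ETFDH, which hands those electrons to ubiquinone, had 26.5 CPM in T320 and 5.24 in C (adjusted p = 0.00892, edgeR).

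Among 32 genes for expression of mitochondrial DNA, 0 rose and 0 fell from C to T80 (edgeR; 3 with an unadjusted p under 0.05, against 2784 of all 11156 genes), and 2 of 23 rose over the escalation, against 8.03% of all genes. Those were MTERF3, a mitochondrial transcription and ribosome assembly factor, and TFB1M, a methyltransferase of mitochondrial ribosomal RNA, both under 50 CPM. Among 16 nuclear regulators 0 rose and 0 fell up to T80 (edgeR; 2 with an unadjusted p under 0.05). The coactivator PPARGC1B and the receptor ESRRG were the 2 of 12 that fell to T320, against 8.99% of all genes. ESRRG is listed at 0 from T2.5 on and passed the filter only through C and T1, which fixed its direction, so without it 1 of 11 fell.

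Of 29 citric acid cycle and pyruvate dehydrogenase genes, PDP1, the phosphatase that activates pyruvate dehydrogenase, rose to T80 (71.9 CPM in T80, 27.2 in C), and 3 of 22 fell to T320, against 3.68% of all genes rising to T80 and 8.99% falling to T320. They included PDHX, a structural subunit of pyruvate dehydrogenase (17.7 CPM in T320, 65.5 in C), and IDH1, the cytosolic isocitrate dehydrogenase (44.2 CPM in T320, 160 in C). Of 30 import and carrier genes, TIMM9 rose to T80, with 88.9 CPM in T80 and 31.8 in C. TOMM40, the outer membrane import channel, fell, with 99.4 CPM in T80 and 363 in C, as did TIMM17A of the inner membrane, on chromosome 1, with 57.4 CPM in T80 and 210 in C. Those 2 of 30 compare with 4.63% falling among all genes. Leaving out a population ended the call for PDP1, IDH1, TIMM9, TOMM40, TIMM17A, TFB1M, MTERF3, PPARGC1B and ESRRG at least once (highest adjusted p between 0.0536 and 0.262, edgeR), and not for PDHX.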

How the data were processed

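The matrix deposited by the authors holds raw UMI counts for 12373 genes in 18209 cells, and in the metadata table the authors deposited for 8240 of them, UMIs and genes per cell are counts, the mitochondrial share is a fraction, and each cell has a state. All 8240 totals matched the matrix (918 T40 cells by barcode). The submitters' processing notes name Seurat 2.3.2, hg38 and GRCh38; they give no aligner, counter, strand setting or cell filter. No further cell filter and no doublet caller was used. Of 17195 distinct barcodes, 970 occur in more than 1 library, with at most 53 shared by a pair.

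Counts were summed per population. Trends used edgeR 4.0.16 (TMM, quasi-likelihood F-test of rank of dose, at least 100 UMIs, Benjamini-Hochberg over all genes, threshold 0.05; 6 and 8 residual degrees of freedom), tested on simulated data. Fitted alternatives used limma 3.58.1 and DESeq2 1.42.0. Intervals are exact at 95% (Poisson, and Clopper-Pearson for shares) and cover counting error only. Pseudogenes and 31-base words (last 500 transcript bases) came from GENCODE 29. Named were isoform pairs, complex II and mitochondrial genes, members past the trend test, the largest differences at T1 (4 each way), T320 (5) and S5 (2), and the 2 steepest of each further list; UQCRH, NDUFAB1, SDHB, NDUFB1 and the genes counted at other single doses were named after their values were seen. Members and lists were chosen with earlier results of these data known. The values of 1 member are not reported here.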

Additional observations from a re-analysis of the deposited data

How the results depend on the processing

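No paired analysis was possible because each population is 1 library and the replicate number 1 pairs nothing. With 1 population left out in turn, members rising from C to T80 numbered 0 to 1 and falling 0 to 2, and members without pseudogenes rising from C to T320 numbered 1 to 7 and falling 0 to 1. With DESeq2, 7 members rose and 4 fell to T80 and 1 fell to T320. To T80, limma-voom called 2 rising, listed cells only 2 falling, and leaving out genes that share sequence 0 falling, since that removes ATP5F1.

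For members at least 2-fold different, a pseudocount of 50 CPM in place of 10 gave 0 lower at T1, 6 lower at T10, 3 lower at T80, 1 higher at T320, 0 higher from T80 to T160 and 3 higher from T10 to T20. A pseudocount of 1 CPM gave 2 lower at T1 and 4 higher at T80. A minimum of 200 CPM gave 1 higher at T320, 1 higher from T80 to T160 and 4 higher from T10 to T20. Totals over nuclear genes gave 2 lower at T1. Leaving genes that share sequence out of the totals gave 2 lower at T1, 4 higher at T80, 1 lower at T320 and 0 higher from T80 to T160. TMM gave 1 lower at T320 and 0 higher from T80 to T160. Listed cells gave 5 higher at T80, 1 lower at T320 and 6 higher from T10 to T20. The lower gene at T320 was COX7A2L. TMM moved the median of all measured genes from 0.05 to -0.17 at T10 and from 0.12 to -0.22 at T320.

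Summed levels relative to C were 0.658 for nuclear genes at T10 with nuclear totals and 0.596 with TMM. At T80 they were 0.965 with nuclear totals, 1.01 with TMM and 0.939 in listed cells. Mitochondrial sums were 0.592, 0.601 and 0.634 of C at T1 and 0.687, 0.719 and 0.774 at T80, with nuclear totals, TMM and listed cells in that order. The sum of members without pseudogenes at T320 was 1.09 with nuclear totals and 1.12 in listed cells, and it turned to 0.943 with TMM. The S4 to S3 ratio of the mitochondrial sum was 0.752 in T10, 0.717 in T20, 0.759 in T40 and 0.729 in T80 with nuclear totals. Chosen after seeing the data, leaving UQCRH out of the sums gave 0.721 for nuclear genes and 0.864 for complex III at T10, and turned complex III to 1.38 at T80. In the complex III sums without UQCRH, UQCRB was above C at both doses (569 CPM in C, 683 in T10 and 1129 in T80). Leaving out ATP5E gave 0.874 for complex V at T80. Leaving out NDUFAF3 gave 1.09 for members without pseudogenes at T320. The cause of these shifts was not tested. Depth limits genes under 50 CPM, such as NDUFAF1, and 0s listed by the files.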
